A study of Mus musculus with 7 samples.

Results

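Late fetal peak genes are the genes whose level in mouse colon on both of the last days before birth, embryonic days E17.5 and E18.5, stood above their level early in fetal life and again above their level in the adult. Of 18194 genes measured, 37 qualified (0.203%), and 1 gene (0.0055%), Pik3r3, qualified in the reverse direction as a late fetal dip. A peak gene was a gene whose lower value at E17.5 and E18.5 exceeded the highest of its values at E13.5, E14.5 and in the adult by at least 1 on the log2 scale, or 2-fold. This difference is called the margin below. Because these 5 arrays chose the genes, their values on them are given as a description with no test. The arrays of E15.5 and E16.5 were not used in the choice.

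Colon came from inbred C57BL/6 mice with no treatment in any group, at 7 stages with 1 array each: daily from E13.5 to E18.5, and at 8 weeks after birth (adult). Levels were read on Affymetrix Mouse Genome 430 2.0 arrays as log2 values that the authors had normalized by RMA before deposit, a method that holds all arrays to a common distribution. The labels do not say how many animals or which length of colon went into an array. No stage has a replicate, so the gap between the neighbouring days E17.5 and E18.5 is the nearest thing to an error on a late fetal level, and the adult level rests on 1 array. Between E18.5 and 8 weeks there is no array, so whether a level was highest before or after birth cannot be told. The word peak means only that the late fetal arrays lay above the early and adult ones.

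Colon epithelium is laid down as an endoderm tube that folds and forms its secretory and absorptive cells in late gestation. Before birth and during suckling, rodent gut epithelium carries apical endosomes that take up protein from the lumen, an apparatus that is lost or reduced later. It also assembles lipoproteins and makes citrulline. The wall around it, smooth muscle and connective tissue, lays down contractile proteins and collagen in the same days. In bulk tissue such as this, a larger share of cells of a type and more RNA per cell cannot be told apart.

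Margins of the 37 genes ran from 1.0 to 3.70 with a median of 1.37, and 8 were at 2 or more. From E13.5 to E18.5 the median level of the 37 genes was 6.17, 6.31, 6.71, 7.52, 8.29 and 9.18, and in the adult 6.46. Over all 18194 genes the median stayed between 6.07 and 6.17 on the 7 arrays. In 24 of the 37 the adult level lay within 0.5 of the mean of E13.5 and E14.5. In 5 (Cps1, Naaladl1, C2, Rap1gapos and the gene model Gm19696) the adult was at least 1 above that mean, and in 3 (Serpina1b, ccdc198 and Neu3) at least 1 below it.

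**Figure D1:**
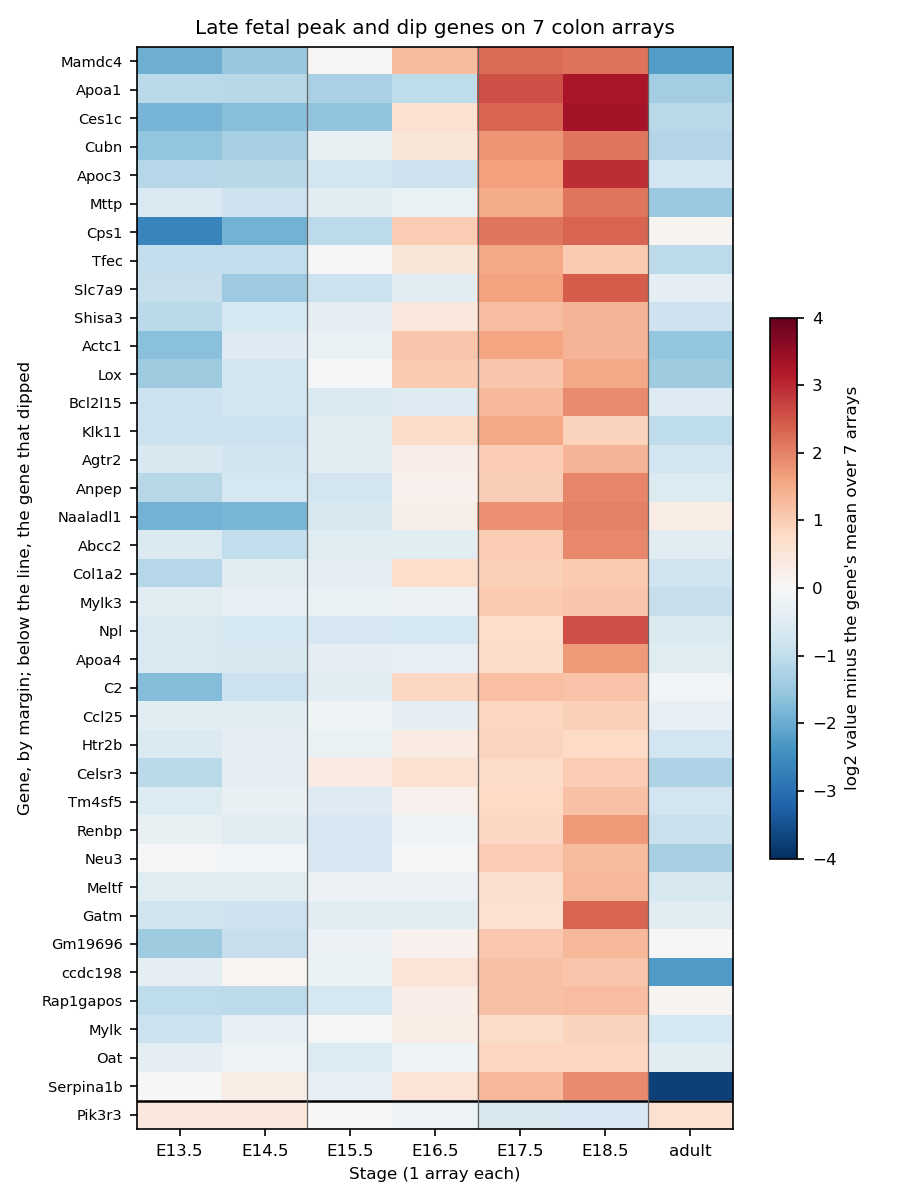
Heat map of the 37 late fetal peak genes, ordered by margin, with the dip gene Pik3r3 below the line, on the 7 arrays (columns, 1 array per stage). Colour gives the log2 value minus the mean of that gene over the 7 arrays, red above and blue below. The columns E17.5 and E18.5 are red for all 37 peak genes, and the deepest blue of the adult column is Serpina1b, at a log2 value of 4.53.

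Promoter sequence is shown for 5 peak genes, the 3 with the largest margins, Apoa4 as a peak gene near Apoa1 (Apoc3, which lies nearer, has no entry in the promoter table used), and Bcl2l15 as the gene with most of the searched motifs in a short stretch. The sequences are the 170 bases before the annotated start of each gene, read 5′ to 3′ on the strand of the gene, from RefSeq on build GRCm38.p6, and capitals mark matches to the motifs described after them. Mamdc4 lies on the minus strand (chr2:25571317-25571486), Apoa1 on the plus strand (chr9:46228460-46228629), Apoa4 on the plus strand (chr9:46240674-46240843), Ces1c on the minus strand (chr8:93131284-93131453) and Bcl2l15 on the plus strand (chr3:103832526-103832695).
Mamdc4: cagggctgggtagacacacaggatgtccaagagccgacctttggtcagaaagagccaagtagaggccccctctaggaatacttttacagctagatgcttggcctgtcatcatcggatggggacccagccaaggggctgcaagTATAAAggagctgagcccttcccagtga
Apoa1: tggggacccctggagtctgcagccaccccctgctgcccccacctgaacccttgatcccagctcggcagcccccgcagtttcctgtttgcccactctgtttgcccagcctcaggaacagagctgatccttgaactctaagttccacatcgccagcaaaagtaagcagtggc
Apoa4: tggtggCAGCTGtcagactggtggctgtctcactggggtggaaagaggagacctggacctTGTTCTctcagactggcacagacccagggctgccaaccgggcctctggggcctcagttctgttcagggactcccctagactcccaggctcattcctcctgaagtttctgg
Ces1c: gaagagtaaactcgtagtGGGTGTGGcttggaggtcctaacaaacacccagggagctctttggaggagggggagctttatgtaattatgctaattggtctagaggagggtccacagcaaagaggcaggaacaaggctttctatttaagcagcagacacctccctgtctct
Bcl2l15: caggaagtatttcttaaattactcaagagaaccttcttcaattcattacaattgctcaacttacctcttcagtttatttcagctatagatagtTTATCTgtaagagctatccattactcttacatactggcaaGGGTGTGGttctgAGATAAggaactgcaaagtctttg

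Promoter windows of 250 bases before to 50 bases after the start were matched for 31 of the 37 genes, as 35 windows, and for 14453 of the measured genes, as 18110 windows. Motifs were searched as plain letters on both strands. The TATA box, TATAAA, which places the start of transcription, stood 28 bases before the start of Mamdc4 and was in 3 of the 35 windows (8.57%), against 9.77% of all windows. A Gata site, AGATAA, bound by zinc finger factors of gut and blood, was in 4 windows (11.4%), those of Bcl2l15, Mylk3, Neu3 and Slc7a9, against 8.09% of all. Bcl2l15 and Slc7a9 each held 2 of them, as did Mylk3. A Klf1 site, CCACACCC, was in 4 windows (11.4%), those of Bcl2l15, Ces1c, Npl and Tm4sf5, against 3.83% of all. A site of the glucocorticoid receptor, AGAACA, was in 8 windows (22.9%), against 14.7% of all, and Apoa4 held 2. The E box CAGCTG was in 9 windows (25.7%), against 16.4% of all. An Hnf4 site, CAAAGTCC, was found for Neu3 (2.86% against 1.47%), an Hnf1 site, GTTAATNAT, for Rap1gapos (2.86% against 0.591%), and the Cdx2 site TTTATTG for Celsr3 (2.86% against 2.88%). The Cdx2 site TTTATGG (2.15% of all windows), a CArG box spelled CCATATTAG (0.0607%), a peroxisome proliferator site AGGTCANAG (1.67%) and a sterol element TCACCCCAC (0.591%) matched in none of the 35. No 2 matches overlapped. A match is only a run of letters, and with 35 windows 1 match is 2.86% by itself.

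The gene with the largest margin, Mamdc4, and Cubn belong to protein uptake from the gut lumen. Mamdc4 encodes a glycoprotein of apical endosomes, also known as endotubin, found in fetal and suckling enterocytes. Its log2 value was 6.86, 7.29, 8.87, 10.10, 11.08 and 10.99 from E13.5 to E18.5 and 6.58 in the adult, with a margin of 3.70, which is 13-fold. It was higher on each array than on the one before up to E17.5, and its adult value lay below that of E13.5. Cubn encodes cubilin, a large receptor that takes up protein and the vitamin B12 carrier from the lumen. It measured 6.38, 6.65, 7.66, 8.45, 9.74 and 10.11 from E13.5 to E18.5 and 6.79 in the adult (margin 2.95), and both of its probe sets met the rule. Its membrane partner Amn, chosen after the values were seen, measured 5.62, 5.67, 5.76, 5.96, 6.19 and 7.10 from E13.5 to E18.5 and 5.75 in the adult, highest at E18.5 as well but with a margin of only 0.44. Among 14 measured genes on the list for fetal endocytosis, which does not hold Mamdc4, Cubn was the single peak gene, and the list's median margin was −0.17, against −0.28 over all genes. Of the 14, 5 had both late arrays above the early and adult ones by any amount, beside 8.62% of all genes, and 2 had both below. Lrp2 lay between 4.62 and 4.74 on the 7 arrays (margin −0.10). Fcgrt, Pllp and Clu were highest in the adult (margins −0.57, −0.99 and −3.21). The lysosomal hydrolase Glb1, also on that list, kept a high adult level (7.14, 7.45, 7.40, 8.32, 9.19 and 9.62 from E13.5 to E18.5 and 8.86 in the adult).

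Lipoprotein assembly gave the largest group from any list, with 4 of 19 measured genes of lipid absorption. Apoa1 encodes the main protein of high density lipoprotein, which gut and liver secrete. It measured 6.91, 6.90, 6.71, 6.99, 10.57 and 11.26 from E13.5 to E18.5 and 6.61 in the adult. The 4 embryonic arrays up to E16.5 and the adult array ranged over 0.38, and the 2 late arrays stood above them by at least 3.66, or 12.6-fold. Apoc3, an inhibitor of triglyceride clearance carried on lipoproteins, measured 5.14, 5.15, 5.52, 5.43, 7.92 and 9.24 from E13.5 to E18.5 and 5.52 in the adult (margin 2.40). Apoa4, an apolipoprotein of chylomicrons, measured 7.12, 7.10, 7.35, 7.40, 8.46 and 9.43 from E13.5 to E18.5 and 7.23 in the adult (margin 1.23). All 3 were highest at E18.5, and at E16.5 none lay more than 0.17 above the highest of the early and adult arrays. Mttp encodes the transfer protein that loads lipid onto apolipoprotein B and measured 6.17, 5.96, 6.32, 6.54, 8.29 and 8.94 from E13.5 to E18.5 and 5.30 in the adult (margin 2.12). Its probe sets disagree in size, with margins of 0.73 and 3.50.

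Apoa1, Apoc3 and Apoa4 are neighbours on chromosome 9 of GRCm38.p6, at chr9:46228630-46230469, chr9:46233050-46235636 and chr9:46240844-46243458, and Apoa5, a regulator of plasma triglyceride made in liver, follows at chr9:46268608-46271921. Apoa5, chosen after the values were seen, stayed between 5.89 and 6.22 on the 7 arrays. Its neighbours were higher at E17.5 than at E16.5 by 3.58 (Apoa1), 2.48 (Apoc3) and 1.06 (Apoa4). Apob, the scaffold protein of chylomicrons, did not share the peak, with 5.05, 5.06, 5.13, 5.02, 5.20 and 5.29 from E13.5 to E18.5 and 6.17 in the adult. Fabp2, the intestinal fatty acid binding protein, was also higher at E17.5 than at E16.5 but highest in the adult (5.69, 6.0, 5.76, 7.24, 10.35 and 10.80 from E13.5 to E18.5 and 12.49 in the adult). Of the 19 genes, 9 had both late fetal arrays above the other 3 by any amount, as did 1568 of all genes (8.62%).

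Ces1c, a carboxylesterase secreted into mouse plasma, had a margin of 3.40, or 10.6-fold. Its log2 value was 5.56, 5.70, 5.80, 8.01, 9.74 and 10.75 from E13.5 to E18.5 and 6.34 in the adult. The values to E15.5 lay close together, and each of the next 3 arrays was more than 1 above the one before. Its relatives, chosen after the values were seen, had another course. Ces1d, Ces1e, Ces1f, Ces1g and Ces2a ranged over 0.16 to 0.52 on the 6 embryonic arrays and were higher in the adult, as in Ces1f with 4.20, 4.03, 4.16, 4.18, 3.97 and 4.18 from E13.5 to E18.5 and 9.56 in the adult. Carboxylesterase genes are close in sequence, and each of these but Ces1d was read by 1 probe set.

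**Figure D2:**
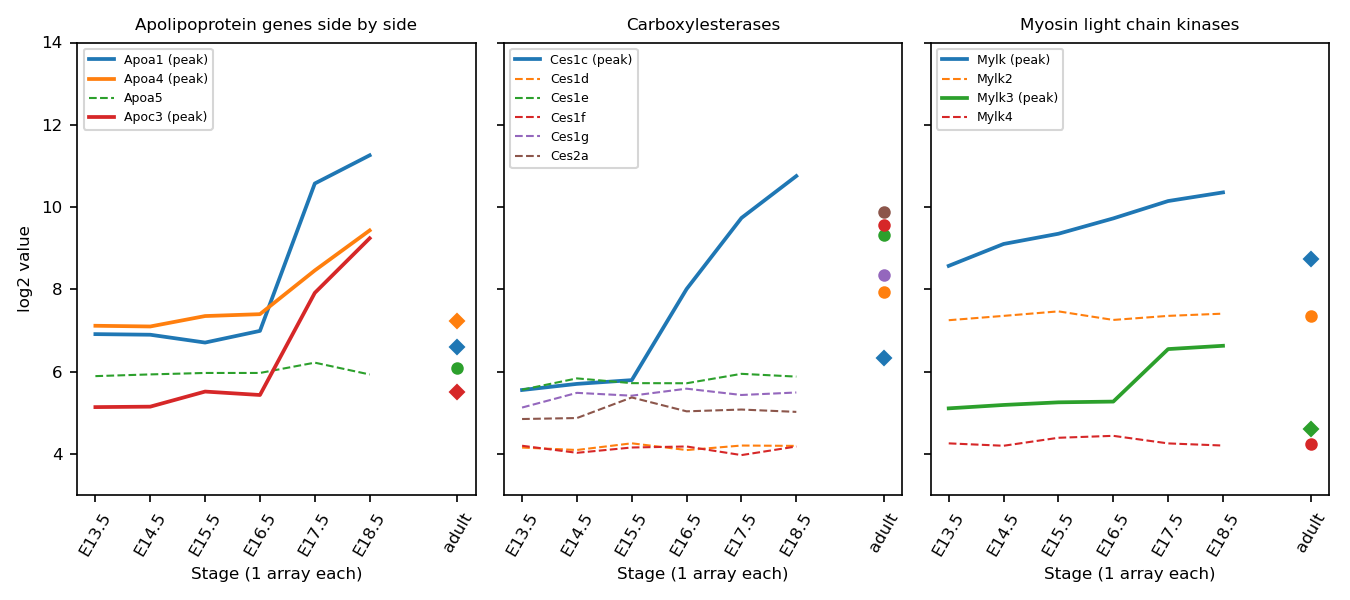
Log2 value (vertical axis) of late fetal peak genes (solid lines, diamonds in the adult) and of their relatives (dashed lines, circles in the adult) at each stage, 1 array per stage, for the apolipoprotein genes side by side on chromosome 9, for carboxylesterases and for myosin light chain kinases. Apoa5 stays between 5.89 and 6.22 while its 3 neighbours stand higher from E17.5, and the relatives of Ces1c are high in the adult only.

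Amino acid handling contributed Slc7a9, Cps1, Oat, Gatm and the surface peptidases Anpep and Naaladl1. Slc7a9 encodes the light chain of the carrier for cystine and basic amino acids, and measured 5.31, 4.77, 5.37, 5.83, 7.85 and 8.66 from E13.5 to E18.5 and 5.87 in the adult (margin 1.99). Its heavy chain Slc3a1, chosen after the values were seen, was highest in the adult (6.58, 6.83, 6.34, 7.21, 8.19 and 8.48 from E13.5 to E18.5 and 8.70 in the adult). Of 11 measured carriers, Slc7a9 was the single peak gene. Cps1 encodes the mitochondrial enzyme that starts the urea cycle and, in gut, citrulline synthesis. It measured 7.24, 8.0, 8.84, 10.88, 12.02 and 12.21 from E13.5 to E18.5 and 9.98 in the adult (margin 2.03), and its adult value was still 2.36 above the early mean. Otc, which acts next after Cps1, was close to its adult level at E17.5 (4.37, 4.98, 5.13, 6.45, 7.92 and 7.78 from E13.5 to E18.5 and 8.02 in the adult). Oat, the ornithine aminotransferase, measured 7.98, 8.16, 7.80, 8.16, 9.20 and 9.18 from E13.5 to E18.5 and 7.88 in the adult (margin 1.03), with nearly equal values on both late arrays. Cps1 and Oat were the peak genes among 11 measured genes of the urea cycle and citrulline synthesis.

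Gatm encodes the enzyme that uses arginine in the first step of creatine synthesis. It measured 6.08, 6.06, 6.45, 6.45, 7.51 and 9.20 from E13.5 to E18.5 and 6.45 in the adult (margin 1.06), and its late arrays differed by 1.69, so the size of its peak depends on which day is read. Anpep, or aminopeptidase N, trims peptides at the brush border and measured 6.66, 7.08, 7.02, 7.95, 8.78 and 9.74 from E13.5 to E18.5 and 7.25 in the adult (margin 1.53). Naaladl1, a peptidase related to glutamate carboxypeptidase, measured 6.03, 6.10, 7.29, 8.16, 9.75 and 9.94 from E13.5 to E18.5 and 8.23 in the adult (margin 1.53) and was higher in the adult than on any array up to E16.5. Among 17 measured genes of the brush border, Anpep alone met the rule, and the structural genes of the microvilli were highest in the adult, as in Cdhr2 with 6.24, 6.02, 6.88, 7.56, 8.86 and 10.04 from E13.5 to E18.5 and 11.66 in the adult.

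Enzymes that release and break down sialic acid, the charged sugar at the end of many glycans, appeared 3 times among the 37. Neu3, a sialidase of the cell surface, measured 8.05, 8.03, 7.46, 8.05, 9.14 and 9.41 from E13.5 to E18.5 and 6.80 in the adult (margin 1.10). Npl, the lyase that splits free sialic acid, measured 6.40, 6.31, 6.33, 6.29, 7.69 and 9.59 from E13.5 to E18.5 and 6.42 in the adult (margin 1.27), and Renbp, the epimerase that acts on its product, measured 8.10, 7.90, 7.70, 8.21, 9.20 and 10.08 from E13.5 to E18.5 and 7.48 in the adult (margin 1.10). The 4 values up to E16.5 ranged over 0.10 in Npl, 0.51 in Renbp and 0.59 in Neu3, and E18.5 was the highest array in all 3. Npl differed by 1.89 between E17.5 and E18.5, the largest such gap of the 37 genes. This grouping was made after the values were seen. On the same basis, 9 genes of sialic acid release and breakdown were read, and the 6 others did not meet the rule. The margin was 0.93 for the lysosomal exporter Slc17a5, 0.34 for Gnpda1, 0.04 for Nagk, −0.26 for the lysosomal sialidase Neu1, −0.52 for Gnpda2 and −0.69 for Amdhd2. Of 4 synthesis genes none met the rule, with margins of −1.78 for Gne, −0.67 for Nans, −0.46 for Cmas and −0.30 for Nanp.

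Other epithelial or secreted products followed. Abcc2, an apical pump for conjugated compounds, measured 5.83, 5.43, 5.92, 5.98, 7.43 and 8.33 from E13.5 to E18.5 and 5.98 in the adult (margin 1.45). Meltf, an iron-binding surface protein, measured 7.28, 7.34, 7.52, 7.52, 8.40 and 9.10 from E13.5 to E18.5 and 7.12 in the adult (margin 1.07). Ccl25, a chemokine that draws lymphocytes to the gut, measured 6.16, 6.15, 6.44, 6.24, 7.46 and 7.55 from E13.5 to E18.5 and 6.27 in the adult (margin 1.19), but 1 of its 2 probe sets had a margin of −0.08. Klk11, a secreted serine protease, was higher at E17.5 than at E18.5 (4.96, 4.97, 5.38, 6.54, 7.37 and 6.73 from E13.5 to E18.5 and 4.80 in the adult, margin 1.76). C2, a complement protein, measured 4.98, 5.86, 6.27, 7.57, 7.92 and 7.86 from E13.5 to E18.5 and 6.63 in the adult (margin 1.23). Its value at E16.5 was near the late ones, and its adult value lay between the early and the late ones. Only 1 of its 3 probe sets met the rule, and their margins were 0.65, 0.96 and 2.32. Serpina1b, an alpha-1 antitrypsin gene, measured 8.30, 8.57, 7.95, 8.79, 9.57 and 10.15 from E13.5 to E18.5 and 4.53 in the adult. Its early values were high, the margin was the smallest of all (1.0), and the late mean exceeded the adult by 5.34. Near-identical copies of Serpina1b exist in the mouse genome, and the probe sets may not separate them.

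Tfec, a transcription factor of the microphthalmia family, measured 5.83, 5.82, 6.80, 7.31, 8.36 and 7.86 from E13.5 to E18.5 and 5.78 in the adult (margin 2.03). Its relatives Mitf, Tfe3 and Tfeb, chosen after the values were seen, had margins of −0.09, −0.18 and −0.25. Bcl2l15, a protein of the Bcl2 family, measured 4.50, 4.60, 4.79, 4.85, 6.66 and 7.26 from E13.5 to E18.5 and 4.85 in the adult (margin 1.81). The 4 arrays to E16.5 and the adult ranged over 0.36, and both late arrays stood clear of them. Tm4sf5, a membrane protein, measured 6.33, 6.57, 6.36, 7.04, 7.68 and 8.04 from E13.5 to E18.5 and 6.12 in the adult (margin 1.11). The coiled-coil gene ccdc198 measured 8.37, 8.79, 8.43, 9.22, 9.88 and 9.83 from E13.5 to E18.5 and 6.46 in the adult (margin 1.04), with its adult value below all embryonic ones. Rap1gapos, an antisense transcript, measured 5.49, 5.45, 5.82, 6.77, 7.67 and 7.75 from E13.5 to E18.5 and 6.62 in the adult (margin 1.04). The gene model Gm19696 measured 5.10, 5.60, 6.29, 6.69, 7.61 and 7.85 from E13.5 to E18.5 and 6.55 in the adult (margin 1.06).

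Genes known from muscle, matrix and nerve, with some receptors and a protein that acts on receptors, made up the rest. They are grouped by known function, which does not place their RNA in a cell type. The list of 20 measured enteric neuron genes held no peak gene. Actc1, cardiac alpha actin, measured 6.46, 7.61, 7.86, 9.24, 9.70 and 9.48 from E13.5 to E18.5 and 6.59 in the adult (margin 1.87). Its value at E16.5 was near the late ones, and its adult value near that of E13.5. Among 27 measured genes of striated muscle it was the single peak gene, and Tnnt1, troponin T of slow muscle, came closest at 0.67. Mylk encodes the myosin light chain kinase of smooth muscle and measured 8.57, 9.10, 9.35, 9.73, 10.15 and 10.36 from E13.5 to E18.5 and 8.73 in the adult (margin 1.04), with margins of 0.11 to 1.04 over its 3 probe sets. Mylk3, the kinase of heart muscle, measured 5.11, 5.19, 5.26, 5.27, 6.55 and 6.63 from E13.5 to E18.5 and 4.60 in the adult (margin 1.36). The step in Mylk3 lay between E16.5 and E17.5 (1.28), while Mylk was higher on each embryonic array than on the one before. The other kinases of the family, Mylk2 and Mylk4, chosen after the values were seen, lay between 7.25 and 7.47 and between 4.20 and 4.44 on the 7 arrays.

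Lox, lysyl oxidase, which crosslinks collagen and elastin, measured 5.18, 5.86, 6.55, 7.67, 7.73 and 8.13 from E13.5 to E18.5 and 5.18 in the adult (margin 1.87). Col1a2, a chain of type I collagen, measured 9.11, 9.80, 9.86, 10.94, 11.17 and 11.29 from E13.5 to E18.5 and 9.45 in the adult (margin 1.37). Both were at least 1 above the early and adult arrays at E16.5 already. In each, 1 of 3 probe sets had a margin near 0 (0.02 for Lox and 0.0 for Col1a2). Col1a1, the other chain of type I collagen, had a margin of 0.90 and so fell outside (10.63, 10.60, 10.70, 11.34, 11.53 and 11.66 from E13.5 to E18.5 and 10.06 in the adult). Of 28 measured genes of collagen and matrix, 16 had both late arrays above the other 3 by any amount, beside 8.62% of all genes, and the list's median margin was 0.03. Agtr2, a receptor for angiotensin II found in fetal mesenchyme, measured 4.96, 4.80, 5.13, 5.87, 6.60 and 6.93 from E13.5 to E18.5 and 4.84 in the adult (margin 1.64). Htr2b, a serotonin receptor, measured 6.83, 7.04, 7.14, 7.74, 8.29 and 8.23 from E13.5 to E18.5 and 6.64 in the adult (margin 1.19). Shisa3, a protein that holds Wnt and FGF receptors inside the cell, measured 4.52, 4.91, 5.20, 6.01, 6.84 and 6.96 from E13.5 to E18.5 and 4.77 in the adult (margin 1.93). These 3 genes were each higher on every array from E15.5 to E17.5 than on the one before. Celsr3, a large cadherin of growing axons, measured 6.07, 6.78, 7.49, 7.76, 7.91 and 8.17 from E13.5 to E18.5 and 5.94 in the adult (margin 1.14), with its largest step as early as E14.5 to E15.5.

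**Figure D3:**
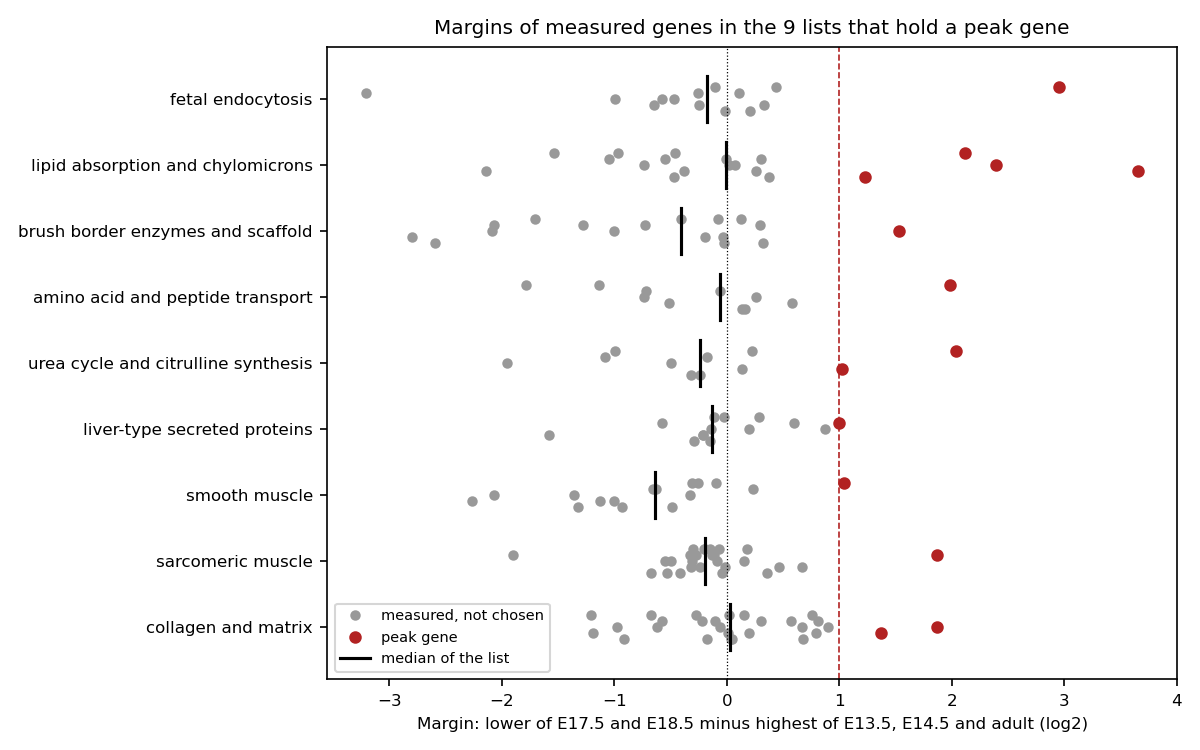
Margin (horizontal axis, log2) of each measured gene in the 9 gene lists that hold at least 1 late fetal peak gene, with 1 point per gene. Red points are the 14 peak genes on these lists, black bars the median of each list, and the dashed line the margin of 1. Lipid absorption has 4 red points, and the medians of all 9 lists lie between −0.64 and 0.03.

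Pik3r3, a regulatory subunit of phosphoinositide 3-kinase, was the single dip gene. It measured 8.43, 8.47, 8.02, 7.80, 7.37 and 7.35 from E13.5 to E18.5 and 8.63 in the adult, so the late arrays lay 1.06 or more below the others. Its course was gradual, with E15.5 and E16.5 between the early and the late values. The nearest genes that missed the threshold of the dip were Vnn1 (0.93), Clu (0.80) and Zmym5 (0.75). Just inside the threshold of the peak were Mylk (1.04), Oat (1.03) and Serpina1b (1.0), and just outside it Fabp7 (1.0, below the threshold before rounding), Adamts4 (0.99) and Folr1 (0.96). Fabp7, Adamts4 and Folr1 were lower in the adult than at any embryonic stage, as in Folr1 with 7.27, 7.85, 8.0, 8.13, 8.81 and 9.27 from E13.5 to E18.5 and 5.31 in the adult.

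The arrays of E15.5 and E16.5 give the timing. At E16.5, 9 of the 37 genes were already at least 1 above E13.5, E14.5 and the adult, beside 14 of all genes (0.0769%). They were Mamdc4, Ces1c, Cubn, Tfec, Shisa3, Actc1, Lox, Klk11 and Col1a2. Another 18 were above by less than 1, so that 27 were above by any amount, beside 2947 of all genes (16.2%). The remaining 10 were not above at E16.5: Apoc3, Slc7a9, Bcl2l15, Naaladl1, Abcc2, Npl, Ccl25, Neu3, Gatm and Oat. At E15.5 only Mamdc4 was at least 1 above, and it was the only such gene of all 18194 (0.0055%). Neighbouring days resemble each other, so these shares of genes chosen at E17.5 are no independent support.

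The largest step between neighbouring days fell between E16.5 and E17.5 in 18 genes, between E15.5 and E16.5 in 13, between E17.5 and E18.5 in 3, between E14.5 and E15.5 in 2 and between E13.5 and E14.5 in 1. Because the rule sets E17.5 at least 1 above E14.5, a rise between these days was fixed in advance. These counts are a description only. In the 9 genes that were at least 1 above at E16.5 the median level on the 4 arrays from E15.5 to E18.5 was 6.80, 8.01, 9.70 and 9.48. In the 10 that were not above it was 6.39, 6.27, 7.77 and 9.19, where the split fixes the low place at E16.5 and the rule the higher values after it. E18.5 was above E17.5 in 29 of the 37, beside 49.2% of all genes. It was above by at least 0.5 in 14, beside 427 of all 18194 genes. Gatm, Npl, Apoc3 and Ces1c were at least 1 higher at E18.5, as were 67 genes in all. Klk11, Tfec, Actc1, Mamdc4, Htr2b, C2, ccdc198 and Oat were lower at E18.5 than at E17.5. In 5 of the 37 genes (Abcc2, Bcl2l15, Gatm, Neu3 and Oat) the value at E16.5 equalled the highest of the other arrays to the last digit, which RMA can give because it summarizes probes by medians, and which held for 2.76% of all genes.

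**Figure D4:**
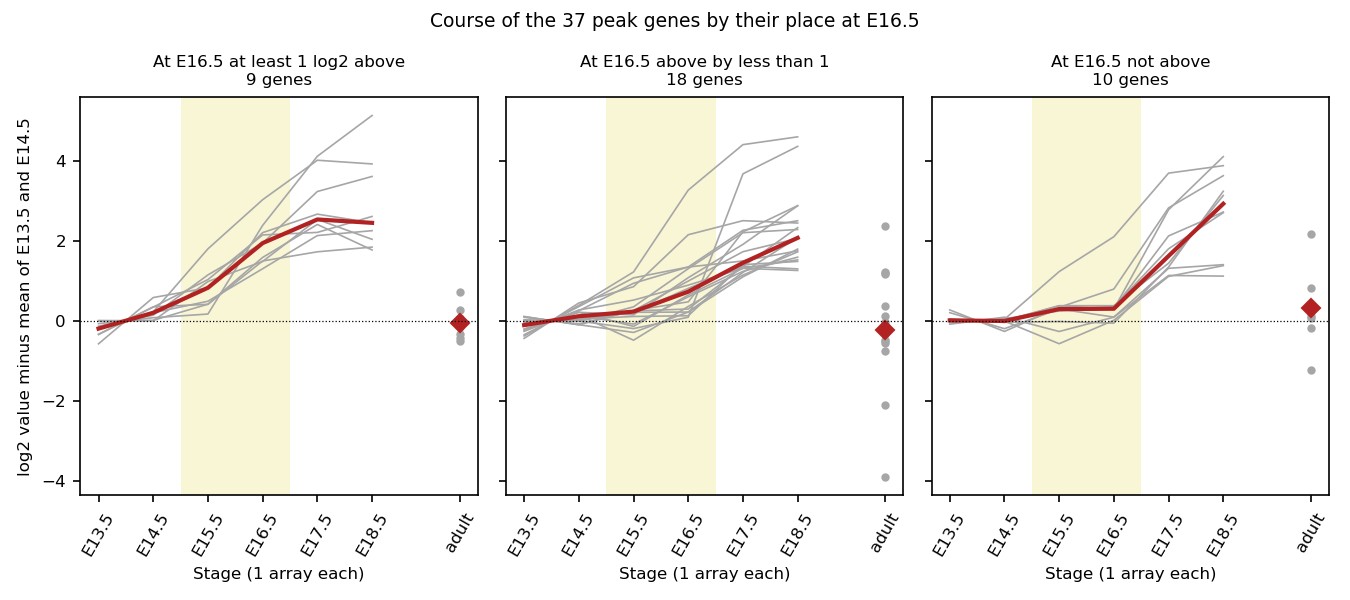
Course of the 37 late fetal peak genes, split by their place on the E16.5 array, which the rule did not use. The vertical axis is the log2 value minus the mean of E13.5 and E14.5, grey lines and points are genes, red lines and diamonds their median, and the shaded days are E15.5 and E16.5. In the left panel the median of 9 genes is nearly level after E17.5, with Ces1c still higher at E18.5. In the right panel the median of 10 genes is nearly level to E16.5 and higher on both following days. For these 10 genes, the split sets E16.5 not above the early and adult arrays, and the rule sets the following days above them.

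Of the 37 genes, 26 were read by a single probe set and 11 by several, while 9012 of all 18194 genes were read by several. In 4 of the 11 (Apoa1, Apoa4, Cubn and Shisa3) every probe set met the rule by itself. In the other 7 (Ccl25, Mttp, Col1a2, Lox, C2, Mylk and Serpina1b) at least 1 did not, and in C2 and Mylk only 1 of 3 did. Ccl25 had the widest disagreement, with margins of −0.08 and 2.39.

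**Figure D5:**
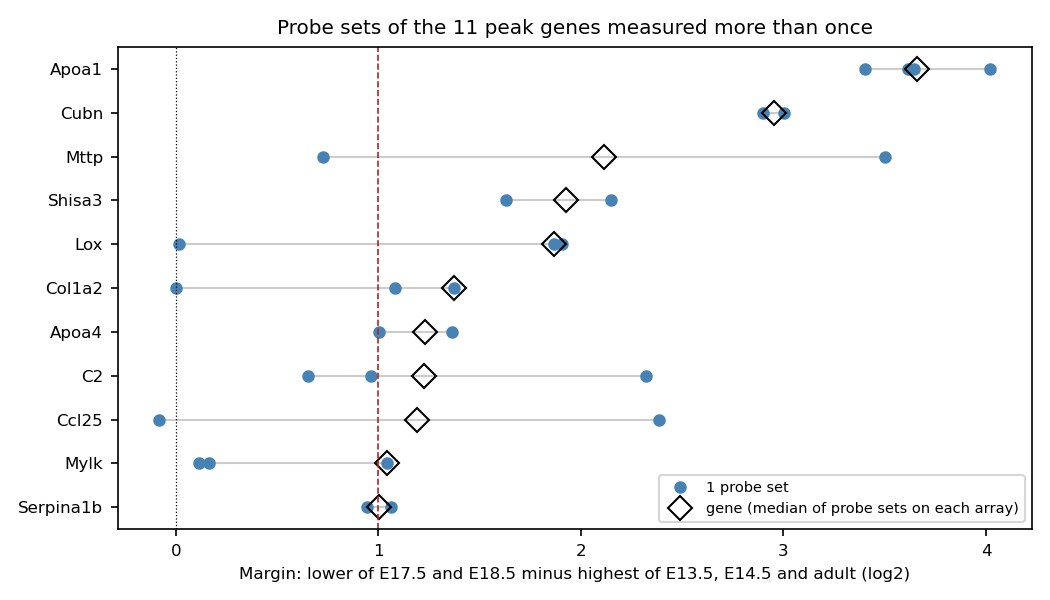
Margin (horizontal axis, log2) of each probe set of the 11 late fetal peak genes measured by more than 1 probe set. Blue points are probe sets, open diamonds the gene after taking the median of its probe sets on each array, and the dashed line the margin of 1. All points of Apoa1, Cubn, Shisa3 and Apoa4 are at or above 1, and Ccl25 spans −0.08 to 2.39.

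To ask which genes differ between late fetal and both other ages beyond the spread of neighbouring days, limma was fitted to all genes with 4 windows, E13.5 with E14.5, E15.5 with E16.5, E17.5 with E18.5, and the adult, which leaves 3 residual degrees of freedom. With Benjamini-Hochberg adjustment over 18194 genes, 0 genes (0.0%) passed as higher than both other ages and 0 (0.0%) as lower. At an unadjusted p under 0.05 there were 306 and 199, and the lowest adjusted p was 0.059. Other settings of limma passed up to 4 genes, all of them peak genes: Apoa1, Ccl25, Mttp and Mylk3 with the brightest probe set per gene, and Apoa1 and Mylk3 without dim genes or with a trend in the variance. For the 37 genes this fit uses the arrays that chose them and adds no independent test. Taken singly, 1218 genes (6.69%) were higher and 1614 (8.87%) lower in the late window than in the early one, and 1597 (8.78%) were higher and 1735 (9.54%) lower than in the adult. These counts rest on the arrays of both windows: against the early window they were 0 in both directions without E13.5, E14.5 or E18.5, and 23 and 0 without E17.5, while they were 1401 and 1890 without E15.5 or E16.5. Against the adult they ranged from 583 to 1036 higher and from 657 to 975 lower when E13.5, E14.5, E17.5 or E18.5 was left out.

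By these single contrasts, which share the late arrays, the counts differed between the lists that hold peak genes. They include the peak genes, which the rule chose on the same arrays, and so are no independent support. In lipid absorption, 9 of 19 measured genes were higher late than early and 0 lower. Against the adult, 5 were higher and 4 lower. The peak genes Apoa1, Apoa4, Apoc3 and Mttp are among the 9 and the 5, and Scarb1 is the other of the 5. In the brush border list the counts were 9 and 0 of 17 against the early window, and 3 and 5 against the adult. In collagen and matrix they were 9 and 0 of 28 against the early window, and 11 and 0 against the adult. Fetal endocytosis had 6 higher and 1 lower of 14 against the early window, and 2 and 1 against the adult. The lists of goblet cell and mucus (17 measured) and of absorptive colonocyte genes (21 measured) held no peak gene: 12 and 10 of them were higher late than early, and 0 and 0 were higher late than in the adult. Peak genes stood on 9 of 48 lists, 14 genes in all, and 23 of the 37 were on none.

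Markers of other tissues were read beside these values. Of the 9 measured factors of gut position, none was a peak gene. Among those of foregut and small bowel, Gata4 lay between 4.56 and 4.88 and Pdx1 between 4.80 and 5.08 on the 7 arrays, while Sox2 measured 6.70, 7.07, 7.83, 6.70, 6.18 and 6.20 from E13.5 to E18.5 and 5.43 in the adult. Among those of hindgut, Hoxb13 measured 6.48, 7.56, 7.63, 8.63, 8.96 and 9.07 from E13.5 to E18.5 and 9.80 in the adult, while Hoxa13 measured 5.04, 5.04, 5.04, 5.11, 5.01 and 5.14 from E13.5 to E18.5 and 5.25 in the adult, Hoxd12 5.82, 5.84, 5.69, 5.84, 6.15 and 5.84 from E13.5 to E18.5 and 5.84 in the adult and Hoxd13 6.96, 7.08, 7.16, 7.32, 7.13 and 7.06 from E13.5 to E18.5 and 6.90 in the adult. The summed level of 13 pan-epithelial genes, on a log2 scale, was 13.24 and 13.68 in the early window, 14.58 and 14.65 in the late one and 14.97 in the adult, highest in the adult. For 14 liver-type genes, of which Serpina1b is one, the sum was 10.72 and 10.88 early, 11.64 and 12.12 late and 10.60 in the adult. It was highest in the late window, as the peak genes were, and 5 of the 14 genes (Serpina1b, Ttr, Fga, Itih2 and Fgb) had both late arrays above the others by any amount, beside 8.62% of all genes. Ttr, the thyroid hormone carrier, measured 8.86, 9.18, 8.83, 9.64, 10.56 and 10.88 from E13.5 to E18.5 and 9.68 in the adult (margin 0.87). The margins of Fga, Itih2 and Fgb were 0.60, 0.29 and 0.19. Afp, alpha-fetoprotein, measured 7.92, 8.14, 7.43, 6.31, 8.02 and 9.51 from E13.5 to E18.5 and 5.09 in the adult (margin −0.11). Albumin, Alb, measured 6.24, 6.59, 6.71, 6.77, 6.72 and 6.69 from E13.5 to E18.5 and 6.83 in the adult (margin −0.14), and Apoa2 6.58, 6.67, 6.52, 6.45, 6.65 and 6.73 from E13.5 to E18.5 and 6.80 in the adult (margin −0.15). For 27 genes of striated muscle, the peak gene Actc1 among them, the sum was 10.41 and 10.59 early and 11.19 and 11.14 late. In the adult it was 10.66, and 20 of the 27 genes lay below the median gene on every array. Over the 27 genes the median of late minus early was 0.01 and that of late minus adult −0.01. Actc1 by itself measured 9.70 and 9.48 in the late window and 6.59 in the adult, so the higher late sum does not describe the list as a whole. Both the liver-type and the muscle sum hold a peak gene, chosen by the rule for its high late values. At E18.5 the liver-type genes with the highest values were Ttr, Serpina1b (10.15) and Afp. Apoa1, which gut and liver secrete, stands on the lipid list and is not in the liver-type sum. The part of other tissues in the results was not tested. For Gapdh, the 5′ probe set minus the 3′ one, which is lower where RNA is shortened, was −2.41 in the adult and −1.59 to −1.29 in the embryos, so this measure and age cannot be told apart.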

How the data were processed

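Colon RNA of 7 stages was read on Affymetrix Mouse Genome 430 2.0 arrays. The log2 values deposited by the authors had been normalized with RMA (background correction, quantile normalization, summary of the probes by median polish). Tools named in the processing notes of the submitters are affy 1.22.1 and R 2.9.2, and other settings are not given in the sources used here. No array has a replicate, and precision is limited by the number of arrays.

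In the platform annotation, 34958 of 45101 probe sets carry 1 gene, 932 carry several and 9211 carry none, and the latter groups were left out. Symbols were updated through a gene table of GRCm38.p6 for 18033 of 18195 identifiers, and the median over probe sets gave 18194 genes. limma 3.58.1 (R 4.3.3, lmFit and eBayes) was fitted to 4 windows of stages, with the larger p of both contrasts adjusted by Benjamini-Hochberg at 0.05. It was also run on simulated data, with the outcome not given here, so the size of change that it could miss is not stated. The adult, with 1 array, was taken to vary like the pairs of neighbouring days. Motifs were counted in RefSeq promoters of GRCm38.p6. Python 3.11.15, numpy 2.4.6, pandas 2.3.3 and matplotlib 3.10.9 were used.

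The peak genes and the 48 gene lists, with 607 of 661 genes measured, were chosen with earlier results of these data known. Named in the text were the 25 peak genes with the largest margins, up to 4 genes of each list, the 3 genes on either side of the threshold and markers of the colon. The other peak genes, and the relatives and partners said to be chosen after their values were seen, were added later. Alternatives tried were the brightest probe set per gene, no genes from the dimmest 25%, centred arrays, leaving out each array, margins of 0.5 and 2, E16.5 as a late array, E15.5 as another array, every probe set required, and other limma settings.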

Additional observations from a re-analysis of the deposited data

How the results depend on the processing

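No paired analysis was possible because each stage has 1 array. The main count of 37 peak genes and 1 dip gene was 57 and 4 with the brightest probe set per gene, of which 35 and 1 were the same genes (C2 and Mylk were lost), 8 and 0 at a margin of 2, 135 and 21 at a margin of 0.5, and 9 and 0 with E16.5 as a late array. With E15.5 among the other arrays it was 34 and 0 (without Celsr3, Meltf and Mylk), and 30 genes met the rule in every probe set. Centring each array lost Serpina1b and added Fabp7 and Adamts4. Leaving out arrays can only add genes to such a rule: the counts then ran from 39 (without E13.5) through 41 (E18.5), 59 (E14.5) and 74 (E17.5) to 441 (adult), and for the dip from 1 to 126 (adult), so the adult array decides most of the size of the group.

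In limma, 4 genes passed as higher than both other ages with the brightest probe set, 2 without dim genes and 2 with trend and robust settings, against 0 otherwise. Without the adult array this comparison could not be fitted. Leaving out an embryonic array gave 0 to 1401 genes higher and 0 to 1890 lower than early, and 583 to 1832 higher and 657 to 1978 lower than the adult, the lower ends without E13.5, E14.5, E17.5 or E18.5.

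By list, centring left 0 peak genes among liver-type proteins and the brightest probe set 0 in smooth muscle. Leaving out 1 array gave 1 to 2 peak genes in fetal endocytosis, 1 to 8 in brush border, 1 to 5 in amino acid transport, 1 to 3 in liver-type proteins, 1 to 3 in smooth muscle, 1 to 2 in sarcomeric muscle and 2 to 6 in collagen and matrix. Margins of single named genes were recomputed with the brightest probe set, without dim genes, with centred arrays and without each array of the rule. Among these 344 margins, none turned to the opposite direction, 3 dropped below the threshold and 12 passed it. Most of this was fixed in advance. Leaving out an array can only raise a margin, and leaving out dim genes does not change it. The brightest probe set can change it only in genes read by several probe sets.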

Other observations

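Other genes of the absorptive epithelium were higher late than early in fetal life but missed the rule because of their adult level. Fabp6, the ileal bile acid binding protein, measured 5.41, 5.22, 5.34, 6.58, 9.33 and 9.79 from E13.5 to E18.5 and 8.53 in the adult, with a margin of 0.80. Slc51a and Slc51b, subunits of the basal bile acid exporter, measured 6.02, 6.17, 6.14, 6.85, 7.75 and 8.14 from E13.5 to E18.5 and 7.54 in the adult and 6.0, 5.97, 6.15, 6.95, 9.13 and 9.74 from E13.5 to E18.5 and 10.98 in the adult. The peptide carrier Slc15a1 measured 5.29, 6.52, 7.39, 8.11, 10.13 and 10.68 from E13.5 to E18.5 and 11.26 in the adult, and the alkaline phosphatase Alpi 5.35, 5.26, 5.17, 6.04, 7.81 and 9.39 from E13.5 to E18.5 and 8.54 in the adult. These genes were chosen after the values were seen.

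Cholesterol synthesis genes had small margins. Of 15 measured genes, 6 had both late arrays above the other 3 by any amount (beside 8.62% of all genes), with Stard4 (0.61) and Srebf2 (0.45) as the largest margins and no peak gene. In the enteric neuron list it was 7 of 20, led by Stmn2 (0.52) and Uchl1 (0.45).

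Outside the named genes, 7 probe sets that name no gene and 2 that name several met the peak rule, the larger of the latter being that of Slc28a2 and Slc28a2b, with a margin of 1.79, and the other that of the Pcdha cluster, with 1.18. In the dip direction 1 probe set that names no gene met it (1.17).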
